A study of Mus musculus with 2 samples.

Results

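Mitochondrial ribosomal protein genes (MRP genes) were taken as all mouse protein-coding genes whose symbol is Mrpl or Mrps followed by a number, found through the Entrez gene ID of each row of the deposited transcript count table. This gave 78 of the 24532 gene IDs in the table, 49 named for the large (Mrpl) and 29 for the small (Mrps) subunit, with 101 transcript rows that were summed by gene. They were described in freshly sorted muscle stem cells (the cells that carry Pax7 and regenerate muscle fibres) from male mice, with 1 double-knockout (dKO) and 1 wild-type (WT) RNA-seq library. The dKO genotype combines Pax7-CreER, a tamoxifen-inducible Cre recombinase driven from the Pax7 locus, with Esr2-/-, which lacks the beta form of the estrogen receptor, and a Cre-deletable allele of a gene that is not reported here. Both groups were on a C57BL/6 background, and the labels give both the same protocol of oral tamoxifen (20 mg/mL) on 5 consecutive days from 3 months of age. Both titles carry the mark 6M, which the labels do not explain, and the labels do not say whether the WT mice carried Pax7-CreER, so an effect of that allele cannot be told apart from one of the deletions. Cells were sorted as negative for the lineage markers and for Sca1 and positive for Vcam1, and were not cultured. The sources used here do not give the number of mice behind each library.

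Mitochondria keep their own ribosome, which makes the few proteins encoded by mitochondrial DNA, all of them membrane-bound core subunits of the respiratory chain and ATP synthase. Its ribosomal RNAs come from the mitochondrial genome, but every protein of its large and small subunit is encoded in the nucleus, translated in the cytosol and imported. Some of these proteins have a counterpart in the bacterial ribosome, and others are found only in mitochondria. Quiescent muscle stem cells hold few mitochondria, and mitochondrial content increases when they are activated.

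The dKO library held 43699831 and the WT library 36636680 assigned reads, of which the MRP genes took 0.120% in dKO and 0.123% in WT. A gene counted as measured if either library had 10 or more counts for it (14885 genes), and all 78 MRP genes passed that floor, with counts of 69 to 3016 in dKO and 92 to 2130 in WT. Levels are given as CPM, counts scaled to a common library size, on library sizes scaled by the trimmed mean of M values (TMM), and the log2 ratio of a gene is that of dKO CPM + 1 over WT CPM + 1. Esr2 had 45 counts in dKO and 71 in WT, and since the sources used here do not give the deleted part, this checks nothing about the label. Muscle stem cell markers were abundant in both libraries, with a summed level of 8053 CPM in dKO and 5897 CPM in WT over 8 genes and none at 0. The higher sum in dKO came mostly from Sdc4 (4872 CPM in dKO, 2980 CPM in WT) and Vcam1 (1059 CPM in dKO, 595 CPM in WT), while 4 of the 8 were lower in dKO, among them Pax7 at 315 CPM in dKO and 558 CPM in WT. Markers of sorted-out cell types were lower in dKO, at 238 CPM in dKO and 498 CPM in WT for 8 endothelial genes and 49.2 CPM in dKO and 155 CPM in WT for 8 immune genes. Fibro-adipogenic markers summed to 1761 CPM in dKO and 2621 CPM in WT, and myofibre markers to 528 CPM in dKO and 707 CPM in WT, with no marker of any list at 0. Col3a1, near equal at 910 CPM in dKO and 897 CPM in WT, made up much of the fibro-adipogenic sum. Gene by gene, 7 of 8 endothelial, 7 of 8 immune, 6 of 8 fibro-adipogenic and 0 of 8 myofibre markers had a log2 ratio of −1 or less. Of all measured genes 4.3% did. The part of these other cells in the MRP results was not tested, and in RNA from pooled cells fewer cells of a type and less RNA per cell cannot be told apart. With 1 library per group there is no replicate check, and intervals cover counting error only.

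As a group, MRP genes lay close to all measured genes and had no shared shift between the libraries. Their median log2 ratio was 0.10, beside −0.02 for all measured genes, and it was −0.14 beside −0.24 when libraries were scaled by their totals alone, so the sign of the median depended on the scaling. Of the 78 genes, 43 had a log2 ratio above 0, as did 47.6% of all measured genes, and 35 had one below 0. Under library totals 23 were above 0, as were 30.3% of all measured genes. By the 2-fold rule (log2 ratio of 1 or more, or −1 or less), 1 MRP gene was higher in dKO, where 1.92% of all measured genes were, and 0 were lower, where 4.3% were. By a 1.5-fold rule, 9 were higher (8.98% of all measured genes) and 1 was lower (13.1%), a balance that depended on the scaling. Under library totals only Mrps6 and Mrpl50 (log2 ratios of 0.94 and 0.60) were past 1.5-fold on the higher side. Mrpl34, Mrpl53, Mrpl45, Mrpl22, Mrps31 and Mrps27 (−0.84 to −0.60) were then past it on the lower side. The share of all measured genes under that rule and scaling is not given here. The interquartile range was −0.15 to 0.39 for the MRP genes, and for all measured genes it was −0.34 to 0.29. Counting error alone could cover the difference in 27 genes, whose 95% interval of the fold included 1. The same count over all measured genes is not given here, so this is no trait of the MRP genes. The intervals also take the TMM scaling as given. Mrpl23, for example, had an interval of 1.09 to 1.27 and a log2 ratio of −0.01 under library totals.

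**Figure D1:**
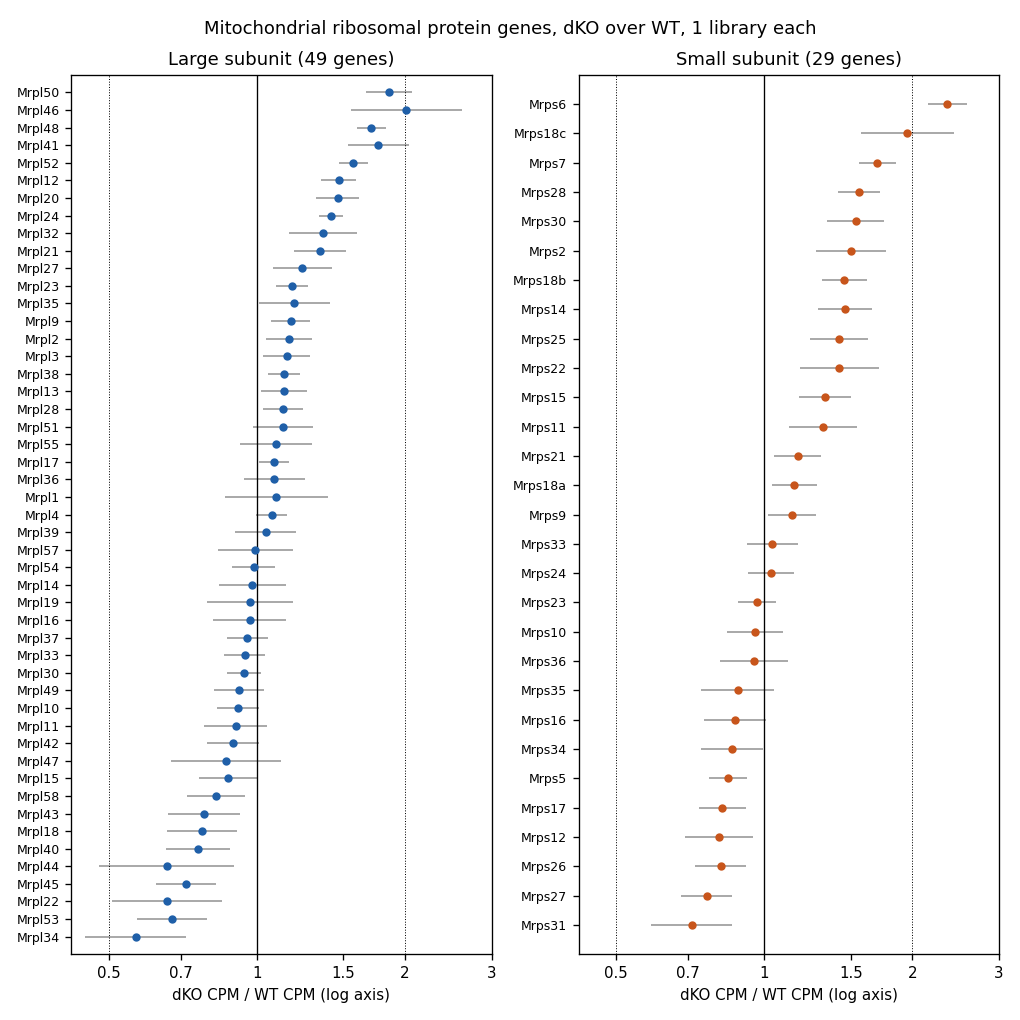
Ratio of CPM in dKO over WT (log axis, no pseudocount) for each MRP gene of the large and the small subunit, with exact 95% counting intervals; dotted lines mark 2-fold. Most genes of both subunits sit between 0.7 and 1.5, and Mrps6 is the one gene whose interval lies wholly above 2; under library totals every ratio is lower and 20 genes have a log2 ratio below 0 in place of one above it.

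Both subunits spanned the same kind of range. The 49 large subunit genes had a median log2 ratio of 0.10, with 26 above and 23 below 0 and values of −0.64 to 0.84. The 29 small subunit genes had a median of 0.18, with 17 above and 12 below 0 and values of −0.41 to 1.19. Under library totals the medians were −0.15 for the large and −0.06 for the small subunit. Summed over its genes, the large subunit had 34763 counts in dKO and 30179 in WT, a fold of 1.15 (1.13 to 1.17). The small subunit had 17574 counts in dKO and 14948 in WT, a fold of 1.18 (1.15 to 1.20). All measured genes together had a fold of 1.19 by the same scaling, so neither sum was raised beside them. Of the assigned reads, the large subunit took 0.0795% in dKO and 0.0824% in WT. The small subunit took 0.0402% in dKO and 0.0408% in WT. The difference of the medians, large minus small, was −0.08, and it became 0.04 once a trend on abundance and transcript length was removed. Symbols do not match the solved structures in every case: the proteins of Mrps18a and Mrps30 sit in the large subunit, and that of Mrps36 is a component of the 2-oxoglutarate dehydrogenase complex. Assigned by structure, 51 large subunit genes had a median of 0.10 and 26 small subunit genes one of 0.11, a difference of −0.01. The difference between the subunits was thus small, and its size and sign moved with the assignment and the processing.

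Mrps6 was the one MRP gene past 2-fold on the log2 ratio. It encodes a small subunit protein of bacterial descent that, in bacteria, binds the platform of the subunit together with protein S18. Mrps6 (Entrez ID 121022, chromosome 16, 92058336 to 92112227 on GRCm38) had 1554 counts in dKO (95% Poisson interval 1478 to 1633) and 660 in WT (611 to 712), or 38.8 and 16.5 CPM in dKO and WT. The dKO to WT ratio was 2.35 (2.15 to 2.58). The log2 ratio of Mrps6 was 1.19, and it was below 1 by library totals (0.94) and after removal of the trend described further on (0.99). In the GENCODE annotation its exons share 159 bases on the same strand with Slc5a3, a myo-inositol transporter gene, and 165 with the predicted gene Gm49711, which was not analysed here. Slc5a3 had 3382 counts in dKO and 3279 in WT and a log2 ratio of 0.04. Reads of the shared stretches cannot be told apart, and their part in the Mrps6 ratio was not tested.

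The other higher small subunit genes included the mitochondrial S18 protein itself. Mrps18c, whose protein takes the place of bacterial S18, had 250 counts in dKO and 128 in WT, a ratio of 1.95 (1.57 to 2.44). Its relatives gave 863 counts in dKO and 593 in WT for Mrps18b (1.45, 1.31 to 1.62) and 740 in dKO and 642 in WT for Mrps18a (1.15, 1.04 to 1.28), which turned below 1 under library totals. The S18 family thus ran from near equal to almost 2-fold. Mrps7, a protein of the subunit's head that starts its assembly in bacteria, had 1407 counts in dKO and 828 in WT (1.70, 1.56 to 1.85). Exons of Mrps7 overlap Gga3 and Mif4gd on the opposite strand, and those had log2 ratios of −0.15 and −0.51. Mrps28 had 1034 counts in dKO and 663 in WT (1.56, 1.41 to 1.72). Mrps30, whose protein is built into the large subunit, had 566 in dKO and 369 in WT (1.53, 1.34 to 1.75), and Mrps2 had 371 in dKO and 247 in WT (log2 ratio 0.52). Each of these 5 genes, from Mrps18c and Mrps7 to Mrps2, was higher in dKO under library totals as well, with log2 ratios of 0.29 to 0.58.

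Under TMM, small subunit genes at the low end differed less. Mrps31 had 192 counts in dKO and 269 in WT, which is 1.40-fold lower in dKO (1.16 to 1.70). Mrps27, a pentatricopeptide repeat protein that binds RNA, had 499 in dKO and 653 in WT (1.31-fold lower, 1.16 to 1.47). Mrps12, the protein of the decoding centre whose bacterial form carries streptomycin resistance mutations, had 285 counts in dKO and 352 in WT (1.24-fold lower, 1.05 to 1.45). These and Mrps26 (522 counts in dKO, 640 in WT), Mrps17 (599 in dKO, 729 in WT) and Mrps5 (954 in dKO, 1129 in WT) were all below 1.5-fold under TMM. Under library totals their log2 ratios were −0.63 (Mrps31) to −0.48 (Mrps5), and Mrps31 and Mrps27 (−0.60) were past 1.5-fold. With that scaling the low end differed no less than the higher genes from Mrps18c (0.58) to Mrps2 (0.29). Mrps5 lies at the channel where mRNA enters and Mrps17 on the body of the subunit in bacteria.

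Of the 6 highest large subunit genes 5 lack a bacterial counterpart, as do 4 of the 6 lowest. Among all large subunit genes assigned by structure, 21 of 51 lack one. The genes were picked by these same ratios, so the counts are a description only. Mrpl50 (chromosome 4, 49512597 to 49521083) had 945 counts in dKO and 509 in WT, a ratio of 1.86 (1.66 to 2.07). Mrpl46 and Mrpl48 encode proteins of the central protuberance, the crest of the subunit that contacts tRNA and the small subunit. Mrpl46 had 185 counts in dKO and 92 in WT; its ratio of 2.01 (1.56 to 2.61) has no pseudocount, and its log2 ratio with one was 0.77. Mrpl48 had 2199 counts in dKO and 1286 in WT (1.71, 1.59 to 1.83). Mrpl48 shares 403 exon bases with Rab6a on the opposite strand, which was also higher (17516 counts in dKO, 11782 in WT), and the sources used here do not give the strand setting of the counts. Mrpl41, studied also for a role in cell death, had 553 counts in dKO and 313 in WT (1.77, 1.53 to 2.04). Mrpl52 had 2151 counts in dKO and 1368 in WT (1.57, 1.47 to 1.68). Mrpl12, the protein of the flexible stalk that recruits translation factors, was the sixth, with 1455 counts in dKO and 991 in WT (1.47, 1.35 to 1.59), and it alone of these 6 has a bacterial counterpart.

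At the low end of the large subunit, Mrpl34 (chromosome 8, 71464926 to 71465753), a small protein of bacterial type, had 115 counts in dKO and 202 in WT and was 1.76-fold lower in dKO (1.39 to 2.23). Under TMM it was the one MRP gene lower by more than 1.5-fold on the log2 ratio, which was −0.64. Under library totals Mrpl53, Mrpl45, Mrpl22, Mrps31 and Mrps27 were past 1.5-fold as well. Mrpl53, at the base of the stalk, had 252 counts in dKO and 374 in WT (1.48-fold lower, 1.26 to 1.75), and the predicted gene Gm42688 shares 418 of its exon bases on the same strand. Mrpl22, which lines the exit tunnel, had 104 counts in dKO and 158 in WT (1.52-fold lower, 1.18 to 1.97). Mrpl45, the protein that holds the tunnel exit at the inner membrane, had 347 counts in dKO and 484 in WT (1.40-fold lower, 1.21 to 1.61). Mrpl44, with a fold like that of ribonuclease III, had 69 counts in dKO and 105 in WT (1.52-fold lower, 1.11 to 2.09), and this was the smallest dKO count of any MRP gene. Mrpl40, of the central protuberance, had 312 counts in dKO and 410 in WT (1.31-fold lower, 1.13 to 1.53). Proteins that are neighbours in the ribosome were therefore found at both ends: Mrpl40 was lower while Mrpl46 and Mrpl48 were higher, and Mrpl53 was lower while Mrpl12 was higher. Mrpl58, a peptidyl-tRNA hydrolase built into the large subunit that frees stalled chains, had 396 counts in dKO and 479 in WT (1.21-fold lower, 1.06 to 1.39).

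Sorted by descent, the 46 MRP genes with a bacterial counterpart had a median log2 ratio of 0.14, with 29 above 0. The 32 without had one of −0.03, with 14 above 0, and 47.6% of all measured genes were above 0. Under library totals both medians were below 0, at −0.09 with and −0.27 without a counterpart, and their order was the same. The shares above 0 were then close, at 30.4% with and 28.1% without a counterpart, beside 30.3% of all measured genes. With the trend removed the medians were 0.11 and −0.09. The interquartile ranges overlapped, at −0.08 to 0.38 with and −0.26 to 0.44 without a counterpart, and genes are not replicates of the genotype.

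Levels per transcript length differed far more between MRP genes than between libraries. In CPM per kb of transcript (RPKM), they ran from 0.985 to 130 in dKO and from 0.996 to 83.0 in WT, with medians of 11.4 in dKO and 11.3 in WT. Mrpl52 was the most abundant per kb in both (130 in dKO, 83.0 in WT), followed by Mrpl24 (79.4 in dKO, 56.1 in WT) and Mrpl23 (64.4 in dKO, 54.6 in WT). Mrpl24 and Mrpl23 encode proteins at the exit of the tunnel. Mrpl48 ranked 4 in dKO at 58.5, against 34.1 in WT. In the small subunit the most abundant per kb by the mean of the libraries were Mrps21 (42.4 in dKO, 36.2 in WT), Mrps6 (49.8 in dKO, 21.2 in WT), Mrps28 (35.8 in dKO, 23.0 in WT) and Mrps18a (21.4 in dKO, 18.6 in WT). Mrps6 ranked 5 of all MRP genes in dKO and 15 in WT. The higher level in dKO of Mrpl23, Mrps21 and Mrps18a did not hold under library totals, where their log2 ratios were −0.01, −0.03 and −0.05. The lowest in dKO were Mrpl19 (0.985 in dKO, 1.01 in WT), Mrpl1 (1.13 in dKO, 0.996 in WT) and Mrpl44 (1.21 in dKO, 1.84 in WT). The median per kb was 11.1 in dKO and 9.71 in WT for the large, and 12.4 in dKO and 11.8 in WT for the small subunit. Over the 78 genes the log2 levels of the libraries had a Pearson r of 0.95, a description that rests on gene-to-gene differences in level and shared transcript lengths.

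**Figure D2:**
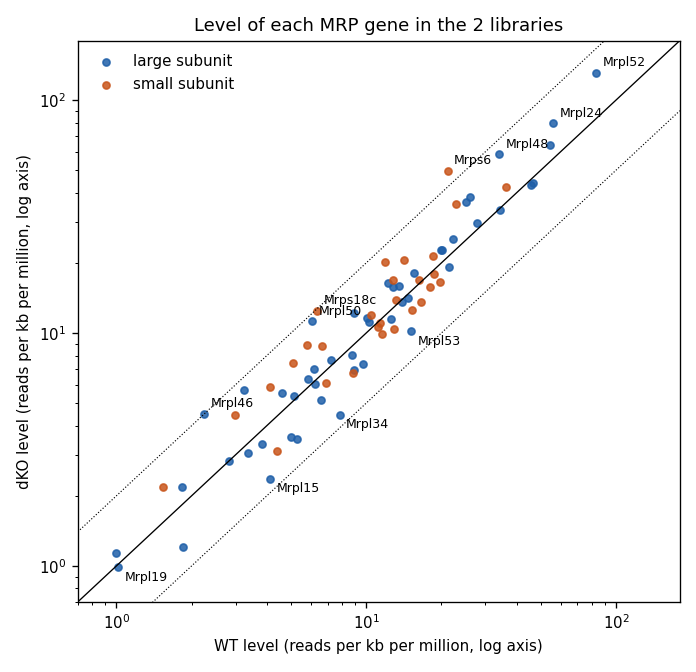
Level of each MRP gene per kb of transcript in the dKO (vertical) and the WT library (horizontal), both on log axes; the solid line marks equality and the dotted lines 2-fold. The genes follow the line of equality from about 1 (Mrpl19) to 130 in dKO and 83.0 in WT (Mrpl52). Mrps6 lies above the upper dotted line, and Mrpl46 (4.49 in dKO, 2.23 in WT) just past it, as no pseudocount is used here.

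A further 5 proteins of the mitochondrial ribosome carry other symbols, and all 5 genes had log2 ratios above 0, with a median of 0.31 (0.08 under library totals, where 4 of 5 were above 0) and none past 1.5-fold. Dap3, the GTP-binding protein of the small subunit head, had 2328 counts in dKO and 1758 in WT and a log2 ratio of 0.40. The small subunit genes Ptcd3 (966 counts in dKO, 807 in WT), Chchd1 (537 in dKO, 385 in WT) and Aurkaip1 (1213 in dKO, 1098 in WT) had log2 ratios of 0.25, 0.44 and 0.14, and Aurkaip1 was at −0.11 under library totals. Gadd45gip1, of the large subunit, had 485 counts in dKO and 383 in WT and a log2 ratio of 0.31.

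Other genes of mitochondrial translation differed by list, read here beside a median of −0.02 and 47.6% above 0 for all measured genes (−0.24 under library totals). Of 28 assembly factors, 10 had a log2 ratio above 0, 1 was 2-fold lower and 0 were 2-fold higher, and their median was −0.16 (−0.34 under library totals). The member past 2-fold was Trub2, a pseudouridine synthase (142 counts in dKO, 329 in WT, log2 ratio −1.02), which was at 0.58 by its most abundant row alone and at −0.73 with the trend removed. Gtpbp10, a GTPase of large subunit assembly, had 166 counts in dKO and 326 in WT (−0.83), and Tfb1m, a methyltransferase of the small ribosomal RNA, had 32 in dKO and 82 in WT (−0.76). Without the pseudocount Tfb1m was 2.56-fold lower in dKO (1.68 to 3.99). Of 16 measured translation factors, 5 were above 0 and 0 were past 2-fold on the log2 ratio with its pseudocount, with a median of −0.13 (−0.35 under library totals). The release factor gene Mtrf1 had 11 counts in dKO and 60 in WT; its log2 ratio of −0.97 is held back by the pseudocount, and without one it was 5.46-fold lower in dKO (2.84 to 11.5). Next were the initiation factor gene Mtif2, with 308 counts in dKO and 483 in WT (−0.59, and 0.02 by its most abundant row), and the peptide deformylase gene Pdf, with 334 in dKO and 514 in WT (−0.57). Among 22 genes of mitochondrial tRNA charging, 11 were above 0 and 0 past 2-fold, with a median of 0.01 that was −0.22 under library totals. Wars2 (157 counts in dKO, 313 in WT, −0.84) and Ears2 (184 in dKO, 311 in WT, −0.65), the synthetases for tryptophan and glutamate, were lower, and Qrsl1, a subunit of the glutaminyl-tRNA amidotransferase, was higher (193 in dKO, 103 in WT, 0.70).

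Of 15 genes of mitochondrial transcription and its nuclear regulators, 6 were above 0, with a median of −0.10 (−0.35 under library totals), 1 was 2-fold higher and 1 was 2-fold lower. The transcription factor gene Myc had 31764 counts in dKO and 15513 in WT. Its log2 ratio of 1.03 was 0.78 by library totals and 0.58 after removal of the trend, short of the 2-fold rule in both. Ppargc1a, the gene of the coactivator PGC-1α, had 87 counts in dKO and 225 in WT (−1.06, and −0.64 with the trend removed). Mterf2 had 23 counts in dKO and 73 in WT (−0.84), and without the pseudocount it was 3.18-fold lower in dKO (1.96 to 5.32). Tfam, which packages and transcribes mitochondrial DNA, was named after its value was seen and had 1634 counts in dKO and 909 in WT (0.82). Nrf1 (0.12, and −0.12 under library totals), Gabpa (−0.25) and Yy1 (0.37), regulators of many nuclear genes for mitochondria and likewise named after their values were seen, were all below 1.5-fold. These lists were chosen with earlier results of these data known.

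MRP genes were set beside the cytosolic ribosome and the respiratory chain, the most similar gene groups. Against 43 of 78 MRP genes with a log2 ratio above 0 and a median of 0.10, 83 of 84 measured cytosolic ribosomal protein genes were above 0, with a median of 0.60. Of 74 nuclear genes of oxidative phosphorylation, 71 were above 0, with a median of 0.39. Examples are Rpl13 (log2 ratio 0.80), Rplp2 (0.79) and Rps19 (0.78), and Atp5g1 (0.88), Ndufa5 (0.69) and Cox6a1 (0.68). Under library totals the MRP median was −0.14, against 0.35 for the cytosolic ribosome and 0.14 for oxidative phosphorylation. Above 0 were then 23 of 78 MRP, 83 of 84 cytosolic ribosomal protein and 51 of 74 oxidative phosphorylation genes, beside 30.3% of all measured genes. MRP genes were also less abundant, with a median of 12.1 CPM, averaged over the libraries, against 788 CPM for the cytosolic ribosome and 48.3 CPM for oxidative phosphorylation. Abundance moved with the ratio across all genes. The medians were −0.16 in the least abundant eighth of the measured genes, −0.21 in the next and 0.29 in the most abundant, and ran from 0.14 in the shortest eighth of transcripts to −0.15 in the longest. With a cubic trend on abundance and length removed, the medians were 0.05 for MRP genes, −0.01 for the cytosolic ribosome, 0.05 for oxidative phosphorylation and 0.01 for all measured genes. Abundant genes are part of the fitted trend, so a shift they share is removed with it and cannot be told apart from it.

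**Figure D3:**
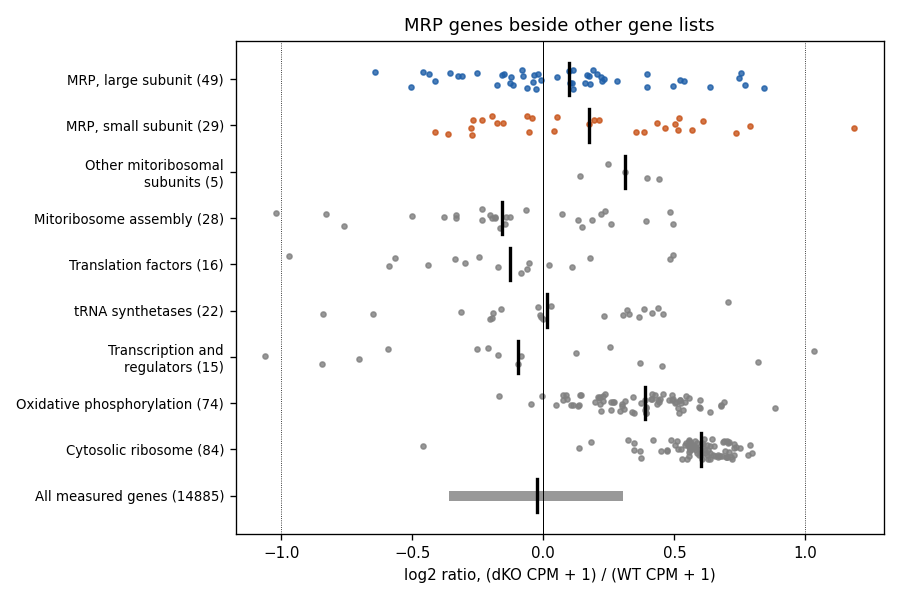
Log2 ratio of dKO over WT for each gene (points) and the median (black bar) of the MRP genes and 7 other lists, with the median and interquartile range (grey bar) of all measured genes at the bottom; dotted lines mark 2-fold. MRP medians (0.10 and 0.18) lie near that of all genes (−0.02), and those of oxidative phosphorylation (0.39) and the cytosolic ribosome (0.60) to the right of it; under library totals the MRP medians are −0.15 and −0.06.

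Within the MRP genes the ratio moved weakly with abundance, more so in the large subunit. Pearson r between the log2 ratio and log2 mean CPM was 0.36 over the 78 genes, 0.45 over the 49 of the large and 0.18 over the 29 of the small subunit. Over the 78 genes it was −0.01 between the log2 ratio and log10 transcript length, and all of these are descriptions over genes of the same libraries. By abundance, 29 MRP genes fell in bin 4 of 8 bins of all measured genes with a median of −0.06, beside −0.14 for all genes there. The 22 in bin 5 had a median of 0.18, beside −0.03 for all genes there. By length, 47 MRP genes were in the shortest eighth, up to 1224 bases, with a median of 0.11 beside 0.14 for all genes of that eighth.

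**Figure D4:**
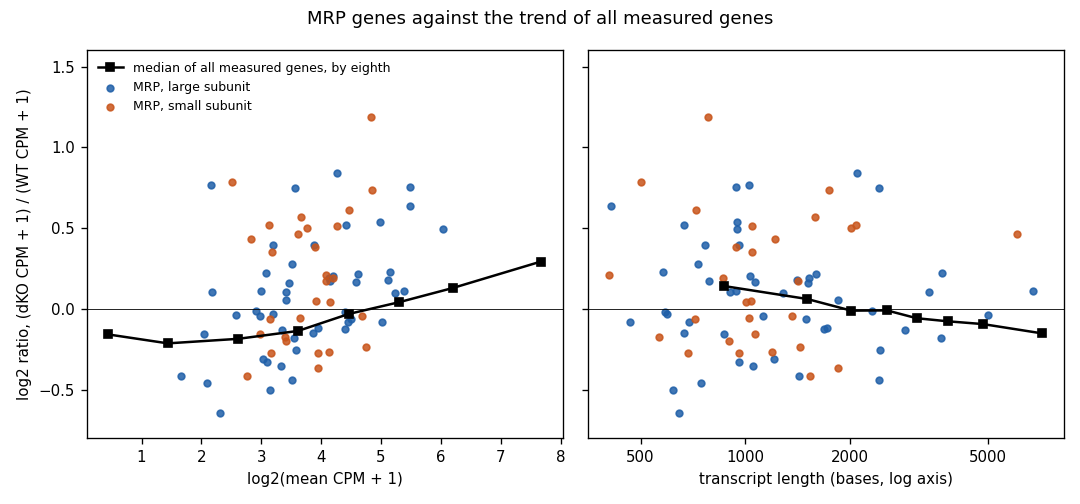
Log2 ratio of dKO over WT for each MRP gene against log2 of mean CPM + 1 (left) and transcript length (right, log axis), with the medians of all measured genes in 8 bins of equal size (black). The black line goes from −0.16 in the least abundant bin through −0.21 in the next to 0.29 in the most abundant, and falls from 0.14 to −0.15 with length, and MRP genes scatter on both sides of it.

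Start regions of the MRP genes were searched for letters that the symbol rule did not use. RefSeq start windows on GRCm38.p6, from 250 bases before to 50 after each start, were on hand for 69 of the 78 genes. They were searched on both strands for CCGGAAG, the core of sites for ETS factors such as GABP; for GCGCAN followed by GCGC, the core of NRF1 sites; for AAGATGGCG, the core of YY1 sites; and for TATAAA, the TATA box. Some genes had several starts, for 75 windows in all, and a match in any of them counted for the gene. The ETS letters occurred in 26 genes (37.7%), against 18.4% of 11202 measured protein-coding genes with a window. NRF1 letters occurred in 13 (18.8%, against 10.6%), YY1 letters in 8 (11.6%, against 3.20%) and TATA letters in 5 (7.25%, against 9.27%). The median log2 ratio was 0.02 in MRP genes with and 0.11 in those without the ETS letters, and 0.05 with and 0.11 without the NRF1 letters. For the YY1 letters it was 0.08 with and 0.11 without. Measured protein-coding genes had the opposite order for all of these. Their medians were 0.02 with and −0.04 without the ETS, 0.05 and −0.03 for the NRF1, and 0.10 and −0.03 for the YY1 letters. By subunit the ETS values were −0.01 with and 0.11 without in the large, and 0.05 with and 0.35 without in the small subunit. For the TATA letters they were 0.76 with, in 3 genes, and 0.08 without in the large subunit, and −0.11 with, in 2 genes, and 0.20 without in the small subunit. The 0.76 is the value of Mrpl48, which lacks the letters in some of its windows, between Mrpl16 (−0.04) and Mrpl46 (0.77). A match is a run of letters and no evidence of binding.

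**Figure D5:**
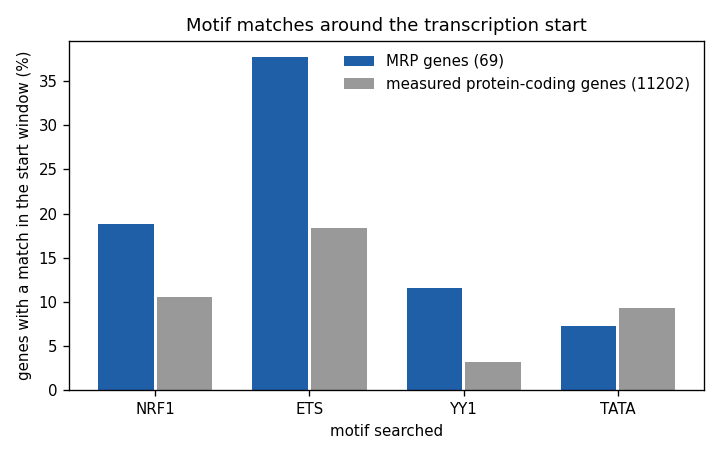
Share of genes (%) with at least 1 match of each motif on either strand in any window around a start, for 69 MRP genes (blue) and 11202 measured protein-coding genes (grey, which include the MRP genes). MRP genes have the larger share for NRF1 (18.8%), ETS (37.7%) and YY1 (11.6%), and the smaller one for TATA (7.25%).

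The 250 bases before the start are printed for the highest and the lowest MRP genes, for the most abundant one per kb, and for a pair with NRF1 or YY1 letters, 5′ to 3′ on the strand of the gene, with matches in capitals. Mrps6 and Mrpl50 are the highest, and neither holds a match. Mrpl34 and Mrpl53 are the lowest, and hold 1 and 2 ETS matches. These genes were picked by their ratios. Next in rank at the high and the low end, Mrps18c (log2 ratio 0.79) and Mrpl22 (−0.46) both hold ETS letters in their start windows. Mrpl52 holds an ETS match here and another just after its start. Mrps21 holds an NRF1 match here and an ETS match after its start, and Mrps18a an ETS match here and a YY1 match after its start. The windows, credited to RefSeq, are chr16:92058086-92058335 (plus strand) for Mrps6, chr4:49521084-49521333 (minus) for Mrpl50, chr8:71464676-71464925 (plus) for Mrpl34, chr6:83108858-83109107 (plus) for Mrpl53, chr14:54426659-54426908 (plus) for Mrpl52, chr3:95871515-95871764 (minus) for Mrps21 and chr17:46110754-46111003 (plus) for Mrps18a.
Mrps6: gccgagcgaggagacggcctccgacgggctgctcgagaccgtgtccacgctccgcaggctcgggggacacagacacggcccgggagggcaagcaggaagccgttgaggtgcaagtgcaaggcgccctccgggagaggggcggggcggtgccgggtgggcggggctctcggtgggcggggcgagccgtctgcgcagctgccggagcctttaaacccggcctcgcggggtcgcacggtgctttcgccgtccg
Mrpl50: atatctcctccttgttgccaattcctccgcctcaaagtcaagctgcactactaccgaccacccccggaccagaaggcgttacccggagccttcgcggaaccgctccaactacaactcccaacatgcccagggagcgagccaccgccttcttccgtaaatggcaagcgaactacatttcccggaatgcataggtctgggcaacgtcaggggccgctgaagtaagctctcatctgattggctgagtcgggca
Mrpl34: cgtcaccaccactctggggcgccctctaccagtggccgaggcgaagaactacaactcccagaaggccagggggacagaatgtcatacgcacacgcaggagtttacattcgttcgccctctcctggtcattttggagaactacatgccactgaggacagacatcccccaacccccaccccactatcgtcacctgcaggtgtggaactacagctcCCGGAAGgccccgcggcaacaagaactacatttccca
Mrpl53: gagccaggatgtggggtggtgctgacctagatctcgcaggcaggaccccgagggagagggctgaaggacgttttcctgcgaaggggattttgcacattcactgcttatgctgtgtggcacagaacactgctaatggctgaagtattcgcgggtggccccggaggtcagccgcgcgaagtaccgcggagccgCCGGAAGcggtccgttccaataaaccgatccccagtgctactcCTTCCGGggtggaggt
Mrpl52: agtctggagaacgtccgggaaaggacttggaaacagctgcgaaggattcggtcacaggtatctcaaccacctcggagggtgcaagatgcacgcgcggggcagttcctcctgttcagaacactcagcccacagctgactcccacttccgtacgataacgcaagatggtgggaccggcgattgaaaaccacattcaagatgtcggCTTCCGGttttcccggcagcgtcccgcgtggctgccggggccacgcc
Mrps21: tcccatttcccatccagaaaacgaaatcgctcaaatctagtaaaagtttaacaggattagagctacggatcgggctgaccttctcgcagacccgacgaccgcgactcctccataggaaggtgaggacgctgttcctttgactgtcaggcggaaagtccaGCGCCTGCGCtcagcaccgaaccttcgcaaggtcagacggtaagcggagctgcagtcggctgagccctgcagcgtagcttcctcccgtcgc
Mrps18a: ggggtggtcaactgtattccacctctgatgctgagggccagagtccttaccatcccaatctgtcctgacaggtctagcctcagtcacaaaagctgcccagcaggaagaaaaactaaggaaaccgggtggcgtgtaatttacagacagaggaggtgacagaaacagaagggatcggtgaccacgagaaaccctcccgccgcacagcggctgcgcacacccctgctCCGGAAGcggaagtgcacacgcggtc
The window of Mrps6 had 74.4% G and C, against 57.2% in that of Mrpl50, and the median of the full windows was 58.0% in MRP genes and 60.7% in measured protein-coding genes.

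MRP genes were spread over 17 chromosomes, with the most, 11, on chromosome 11. In the GENCODE annotation 33 of 78 (42.3%) had a protein-coding gene on the opposite strand that starts within 1000 bases, against 14.8% of 13909 measured protein-coding genes. One such pair is made of 2 MRP genes, Mrpl46 and Mrps11, and both were higher in dKO, at log2 ratios of 0.77 and 0.35. Most partners were other genes. Mrps18c (0.79) starts 29 bases from Helq, a DNA helicase gene with 141 counts in dKO and 238 in WT (−0.62), and Mrpl49 (−0.12) starts 59 bases from Fau, a cytosolic ribosomal protein gene (0.47). Counting each pair once, 29 pairs had a measured partner, and in 15 of them both genes had a log2 ratio of the same sign. The same share over other such pairs is not given here. Signs also depend on the scaling, as 20 of the 78 MRP genes changed sign under library totals.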

How the data were processed

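Per the file headers, the authors deposited whole-number read counts for each transcript on a row of its own that also gives its length in bases and an Entrez gene; other measures here were derived from them. The submitters' processing notes name TopHat2 2.0.9, the mm10 build, edgeR and bedtools without saying what each did. The sources used here do not give the counting rule, annotation or strand setting, so reads shared by overlapping genes, by isoforms or by gene copies may have been divided in ways that move single rows. The 36780 rows were summed to 24532 gene IDs, 24462 with a RefSeq symbol on GRCm38; IDs without one took 0.401% of the dKO and 0.314% of the WT reads.

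TMM factors (edgeR 4.0.16, R 4.3.3) were 0.916 for dKO and 1.09 for WT. With 1 library a group, no test was run. Counts have exact Poisson and ratios exact conditional binomial (Clopper-Pearson) 95% intervals (scipy 1.17.1), which cover counting error only. Levels per kb sum the CPM of each row over its length. Named were the 6 highest and 6 lowest log2 ratios and the 4 highest levels per kb of each subunit, genes whose sign differs between sum and most abundant row, genes whose place in the ribosome differs from their symbol or that belong to the S18 family, and the 3 largest ratios of each other list. The members, lists and motifs were chosen with earlier results of these data known. The steps were run on simulated counts with known changes. These held counting error only, so they cannot check for variation between replicates. Pseudogene copies of Mrpl23, Mrpl27, Mrpl48 and Mrps36 were not analysed here, so the counts of these 4 genes are uncertain. The other gene of the dKO genotype is not reported here.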

Additional observations from a re-analysis of the deposited data

How the results depend on the processing

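The median log2 ratio of the MRP genes was 0.10, and stayed between 0.05 and 0.11 under median-ratio scaling, pseudocounts of 0.1 and 5, the most abundant row of each gene, genes with 1 row only, no count floor, a floor of 100 counts, and removal of the trend on abundance and length. Library totals moved it to −0.14 and the count of genes above 0 to 23 (43 in the main analysis), which follows from scaling alone, since the median of all genes moved to −0.24; the distance of the MRP median from that of all genes was 0.10 under totals and 0.12 under TMM. The number of MRP genes past the fold rule on the higher side was 1, and it was 0 under library totals, with the trend removed and by a 4-fold rule. By a 1.5-fold rule under TMM it was 9. On the lower side it was 0, and 1 by a 1.5-fold rule under TMM. Under library totals the 1.5-fold rule took in fewer genes on the higher side and more on the lower side. Large minus small was −0.08 and ranged from −0.16 (genes with 1 row only) to 0.04 (trend removed). Library totals gave medians of 0.079 for the other mitoribosomal subunits, −0.34 for assembly factors, −0.22 for tRNA charging, 0.35 for the cytosolic ribosome and 0.14 for oxidative phosphorylation. Trend removal gave −0.0080 for the cytosolic ribosome and 0.055 for oxidative phosphorylation. Of the 78 genes, 20 changed sign under totals, 8 with the trend removed and 4 by the most abundant row. No paired analysis was possible because each group has 1 library. The lack of replicates is a limit that no interval covers. Depth limits single genes: at 69 counts in dKO and 105 in WT, the fold of Mrpl44 has an interval of 1.11 to 2.09.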

Other observations

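Several MRP genes had transcript rows that moved apart while their sum was close in both libraries. Of the 14 MRP genes with several rows, 4 had opposite signs by the sum and by the most abundant row. Mrpl15, a large subunit protein of bacterial type, had 397 counts in dKO and 454 in WT in all (log2 ratio −0.18). Its row of 4201 bases had 397 counts in dKO and 255 in WT, and its row of 1916 bases had 0 in dKO and 184 in WT, so the whole dKO signal was in the longest row. Mrps10, of the small subunit head, had 450 counts in dKO and 469 in WT in all (−0.06), while its row of 1020 bases had 315 in dKO and 195 in WT and its row of 1110 bases 2 in dKO and 68 in WT. Mrps33 had log2 ratios of 0.05 by the sum and −0.07 by the most abundant row, and Mrps36 had −0.06 and 0.06.

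Rows moved apart in other MRP genes without a change of sign. Mrpl58 had 327 counts in dKO and 479 in WT in its row of 2596 bases, and 69 in dKO and 0 in WT in its row of 734 bases. Mrpl48 had 474 counts in dKO and 127 in WT in its row of 912 bases, a larger difference than the 1725 in dKO and 1159 in WT of its row of 947 bases. The sources used here do not say how the authors divided reads among overlapping transcripts, so whether these rows reflect transcript use or the division of reads was not tested.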
